A study of Rattus norvegicus with 12 samples.

Results

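The nuclear-encoded subunits of respiratory complexes II to V were examined in left ventricular RNA of 12 rats. Members were the rows of the deposited gene table with the symbol Sdha, Sdhb, Sdhc, Sdhd, Cyc1 or Cycs, or with a symbol beginning with Uqcr, Atp5, Cox4, Cox5, Cox6, Cox7 or Cox8. Of 34700 rows in the table, 52 matched, and 3 of these (Cox6c-ps1, Cox7b2 and Cox8c) had 0 counts in all rats and were left out. The remaining 49 rows comprised 4 of complex II (succinate dehydrogenase), 10 of complex III (cytochrome bc1), 1 for cytochrome c, 16 of complex IV (cytochrome c oxidase), 17 of complex V (ATP synthase and its inhibitor) and Cox7a2l, a factor of respiratory supercomplexes. Cox6b1 and Uqcrb each had a pair of rows with different Ensembl identifiers.

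Complexes II and III pass electrons from succinate and ubiquinol towards cytochrome c, complex IV hands them to oxygen, and ATP synthase uses the resulting proton gradient to make ATP. The heart draws most of its ATP from this chain, and its cardiomyocytes are densely packed with mitochondria. Complexes III, IV and V also contain subunits made from mitochondrial DNA, which were not members, while all subunits of complex II are encoded in the nucleus.

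All animals were male Sprague-Dawley rats aged 8 weeks at surgery. The HF, HFE and BAIBA groups had heart failure after the left anterior descending branch was tied off, and in the Sham group a thread was passed without tying it. From 4 weeks after surgery, HFE rats were trained on a treadmill (60 min per session, 5 sessions a week, 8 weeks), BAIBA rats received β-aminoisobutyric acid, a metabolite released by exercising muscle, at 75 mg/kg/day by gavage for 8 weeks, and the Sham and HF rats were sedentary. The methods give Sham and HF rats the same volume of water by gavage in the BAIBA experiment. They describe the exercise and the BAIBA experiments separately, each with Sham and HF groups, and the sources used here do not give the experiment from which the sequenced Sham and HF rats came. The HFE and BAIBA groups belong to different experiments in the methods, so treatment and experiment cannot be told apart between them. A supplement places BAIBA in the Sham and HF groups, and the labels and methods were followed. Hearts were taken 12 weeks after surgery. Tissue came from the anterior left ventricular wall. The methods name the area around the infarction for BAIBA rats alone, the results text names it for HF and BAIBA rats, and treatment and sampling site therefore cannot be told apart. Each group held 3 rats. In bulk tissue, fewer cells of a type and less RNA per cell cannot be told apart, and the values are levels of mRNA, not of protein or of enzyme activity.

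Library depth lay between 14812541 and 19732588 counts on genes per rat, and members took between 2.03% and 2.56% of them. Cardiomyocyte markers were abundant (Tnnt2, the cardiac troponin T gene, had a mean of 5950 in FPKM, a length-scaled unit), and their summed level over 8 genes was 43587 to 45030 CPM in Sham, 36626 to 38298 in HF, 36504 to 42046 in HFE and 35784 to 43620 in BAIBA rats. Myh6, the α myosin heavy chain gene, weighed most in this sum, with a mean of 18673 CPM in Sham and 12184 CPM in HF rats. Tnnt2 had means of 6740 and 6718 CPM, Pln 4020 and 3405 CPM, and Actc1 6829 and 7232 CPM. The median log2 fold change of the list in HF against Sham was -0.03, with 7 of 8 markers below 0. BAIBA rat 2 stood furthest apart among the members, and for each comparison with BAIBA rats the median and the count at an unadjusted p are given with and without it.

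Promoter sequences of 5 members are shown because the results turn on these genes: Atp5if1, which differed most between BAIBA and HFE rats, Atp5f1e, which differed most clearly between HFE and HF rats, the isoforms Cox8a and Cox8b, and the muscle isoform Cox6a2. They are the 250 bases before the annotated start in RefSeq's GRCr8 assembly, written 5′ to 3′ on the gene's strand, with matches to the searched motifs in capitals.
Atp5if1 (chr5:150026678-150026927, strand minus): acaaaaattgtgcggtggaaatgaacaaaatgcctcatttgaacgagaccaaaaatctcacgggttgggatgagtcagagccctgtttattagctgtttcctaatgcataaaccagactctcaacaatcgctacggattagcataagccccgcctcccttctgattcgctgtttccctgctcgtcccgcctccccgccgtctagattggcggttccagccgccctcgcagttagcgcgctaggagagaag
Atp5f1e (chr3:183680173-183680422, strand minus): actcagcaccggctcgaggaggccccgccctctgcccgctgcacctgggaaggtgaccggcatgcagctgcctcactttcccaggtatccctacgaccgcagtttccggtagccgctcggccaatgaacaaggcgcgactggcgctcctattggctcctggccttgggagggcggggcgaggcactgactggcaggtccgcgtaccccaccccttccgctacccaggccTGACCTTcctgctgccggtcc
Cox8a (chr1:213833624-213833873, strand minus): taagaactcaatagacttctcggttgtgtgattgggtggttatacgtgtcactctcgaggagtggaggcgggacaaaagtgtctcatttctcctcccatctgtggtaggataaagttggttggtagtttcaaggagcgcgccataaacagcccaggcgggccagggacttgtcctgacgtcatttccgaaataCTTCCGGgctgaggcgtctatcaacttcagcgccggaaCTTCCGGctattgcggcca
Cox8b (chr1:205408274-205408523, strand minus): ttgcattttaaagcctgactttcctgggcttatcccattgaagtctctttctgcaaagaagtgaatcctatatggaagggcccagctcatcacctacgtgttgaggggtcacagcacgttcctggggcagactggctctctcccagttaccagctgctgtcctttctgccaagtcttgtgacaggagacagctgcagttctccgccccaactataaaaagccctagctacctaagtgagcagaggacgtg
Cox6a2 (chr1:192219717-192219966, strand minus): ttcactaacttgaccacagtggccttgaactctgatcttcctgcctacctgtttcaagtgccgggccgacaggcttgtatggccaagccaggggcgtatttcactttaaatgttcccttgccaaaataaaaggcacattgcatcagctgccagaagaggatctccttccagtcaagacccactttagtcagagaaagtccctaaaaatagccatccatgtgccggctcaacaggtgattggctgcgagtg

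Motifs of 7 letters were searched on both strands in this window, namely GCGCATG for NRF1, CCGGAAG for the ETS factor GABPA and AAGGTCA for the oestrogen-related receptor ESRRA, factors with long-known roles in nuclear genes for mitochondria. Of 47 member symbols, 40 had a promoter in the RefSeq table, 39 under the same symbol and Atp5md under a synonym. GCGCATG was found in 8 of the 40 (20%) against 3.26% of all 33469 promoters, CCGGAAG in 13 (32.5%) against 7.27%, and AAGGTCA in 5 (12.5%) against 3.99%. At least 1 of the motifs was in 19 member promoters (47.5%) and in 13.84% of all promoters. The motifs do not overlap in the sequences printed. Cox8a carried CCGGAAG (as CTTCCGG) at 57 and 19 bases before the start, and Atp5f1e carried AAGGTCA (as TGACCTT) at 21 bases before it. In the windows of Atp5if1, Cox8b and Cox6a2 these letters did not occur, which says nothing about binding of the factors.

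Levels between genes were compared in FPKM, the authors' read counts scaled by gene length and library size. Members were among the most abundant transcripts of the ventricle. Their median over rows was 438 FPKM, 43 of 49 exceeded 100 FPKM, and the median over all rows of the table was 0.216 FPKM. Highest of all was Atp5f1b, the catalytic β subunit of ATP synthase, with a mean of 2991 FPKM and a range of 2530 to 3227 over the 12 rats, which placed it at rank 21 in the table. The α subunit Atp5f1a followed with 1587 FPKM (1346 to 1787), next to Cox6a2 with 1587 FPKM (1372 to 1844) and Cox4i1, a nuclear-encoded regulatory subunit of complex IV, with 1282 FPKM (1122 to 1406). The ranges of Atp5f1a, Cox6a2 and Cox4i1 overlapped, whereas Atp5f1b lay above each of them in all rats.

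**Figure D1:**
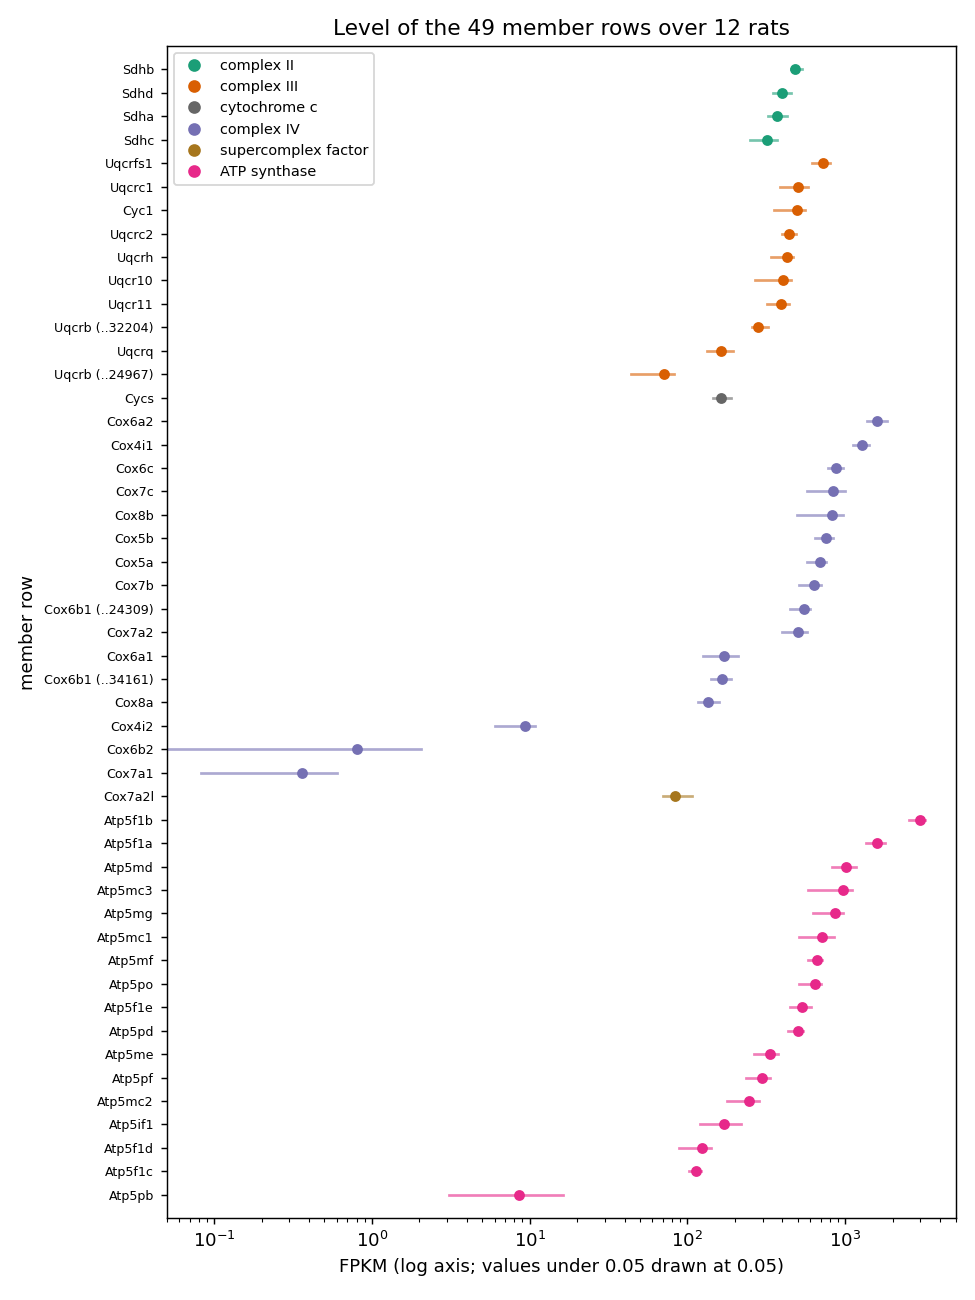
Mean FPKM (points) and range over 12 rats (lines) of the 49 member rows on a log axis, coloured by complex. Most rows lie above 100 FPKM, and Cox4i2, Atp5pb, Cox6b2 and Cox7a1 lie below 10 FPKM; digits in parentheses are the ends of Ensembl identifiers.

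Within complex II, which also works in the citric acid cycle, Sdhb (iron-sulphur subunit) had 480 FPKM, Sdhd and Sdhc (membrane anchors) 397 and 321 FPKM, and Sdha (flavoprotein) 372 FPKM. In complex III the highest row was Uqcrfs1, the Rieske iron-sulphur protein, at 728 FPKM, followed by the core protein Uqcrc1 at 505, cytochrome c1 (Cyc1) at 498 and the core protein Uqcrc2 at 438 FPKM. Its lowest row was a Uqcrb row (ENSRNOG00000024967) at 70.7 FPKM, and the other Uqcrb row (ENSRNOG00000032204) had 280 FPKM. Subunits of 1 complex thus spanned a wide range on the FPKM scale.

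Complex IV and ATP synthase contain subunits with several isoforms. Cox6a2, the heart and skeletal muscle form, exceeded the ubiquitous Cox6a1 by a ratio of up to 12.2 in FPKM, with group means of 9.51 ± 1.09 in Sham, 9.37 ± 1.23 in HF, 9.997 ± 1.54 in HFE and 8.91 ± 2.86 in BAIBA rats (SD, n = 3). Cox8b exceeded Cox8a by a ratio of 3.95 to 7.30, and Cox4i1 exceeded Cox4i2, known as a form of lung and of low oxygen, by 104 to 199. The order within each pair was the same in all 12 rats, and the ranges of the groups overlapped in all 3 ratios. The highest Cox6a2 to Cox6a1 ratio (12.2) and the lowest Cox8b to Cox8a ratio (3.95) both came from BAIBA rat 2.

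The c ring of ATP synthase is built from an identical mature protein encoded by 3 genes. Atp5mc3 contributed 45.7% to 51.7% of their summed FPKM, Atp5mc1 35.6% to 40.2% and Atp5mc2 12.1% to 14.1%. Group means of the Atp5mc3 share were 49.7% ± 1.49 in Sham, 50.5% ± 0.908 in HF, 50.9% ± 0.736 in HFE and 49% ± 2.90 in BAIBA rats (SD, n = 3), so the shares differed between groups by less than the spread among BAIBA rats.

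Some rows are uncertain because of similar genes. Cycs, the electron carrier between complexes III and IV, had 10193 counts over a length of 318 nucleotides, while LOC100363502, described in the table as a somatic cytochrome c-like gene, had 141980 counts over 1200 nucleotides (604 FPKM against 163 FPKM for Cycs). Atp5pb, subunit b of ATP synthase, had 3523 counts, and LOC100911417, described as like that subunit and given the same length of 2063 nucleotides, had 1439 counts. Cox7a1, the muscle form of subunit VIIa, had 104 counts in all 12 rats together (0.360 FPKM), against 46750 for Cox7a2. Atp5pb also varied 4.70-fold between rats in CPM, from 6.61 in BAIBA rat 2 to 31.1 in BAIBA rat 1. The Cycs, Atp5pb, Cox7a1, Cox6b1 and Uqcrb rows are therefore reported as uncertain.

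For each pair of groups, edgeR's quasi-likelihood test was run on the deposited counts, and a call needed a Benjamini-Hochberg adjusted p under 0.05 with a log2 fold change over 1 in size. CPM are library-scaled counts after TMM normalization. Of the 49 rows, 47 passed edgeR's filter on low counts in every comparison, Cox6b2, a testis form, in none and Cox7a1 in BAIBA against Sham alone, where 48 were tested. No member was called in any of the 6 comparisons, and with the fold limit dropped the number with an adjusted p under 0.05 was still 0. Over all genes, calls numbered 0 of 14957 between HF and Sham (0%), 0 of 14938 between HFE and HF, 0 of 15039 between BAIBA and HF, 12 of 14844 between BAIBA and HFE (0.0808%), 0 of 14804 between HFE and Sham and 6 of 14920 between BAIBA and Sham (0.0402%). DESeq2, run as an alternative, also called 0 members in each comparison under the same rule.

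HF against Sham compared the failing with the sham-operated heart. The median log2 fold change over the 47 members was -0.04, against 0.01 over all genes, and 35 members were below 0. At an unadjusted p under 0.05, 0 members were higher (2.47% of all genes) and 1 was lower (3.53% of all genes), and DESeq2 had 0 in both directions. That row was the smaller Cox6b1 row (ENSRNOG00000034161, a subunit at the dimer interface of complex IV), with 47.1, 48.4 and 44.4 CPM in Sham and 41.0, 40.7 and 38.3 CPM in HF rats. All HF rats were below all Sham rats, at a log2 fold change of -0.22 (SE 0.08, adjusted p = 0.805). The row holding most Cox6b1 reads (ENSRNOG00000024309) ranged from 312 to 351 CPM in Sham and from 310 to 335 CPM in HF rats, and these overlapped. Cox7b was at -0.16 (SE 0.08, adjusted p = 0.808) and Atp5md at -0.12 (SE 0.08, adjusted p = 0.829), and the highest members were Atp5if1 at 0.12 (SE 0.10, adjusted p = 0.863), Atp5f1d at 0.10 (SE 0.08, adjusted p = 0.866) and Uqcrfs1 at 0.09 (SE 0.09, adjusted p = 0.884). By complex the medians were -0.06 for complex II, -0.01 for complex III, -0.08 for complex IV and -0.04 for ATP synthase.

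Exercise after infarction was examined by HFE against HF. Here 44 of 47 members had a positive log2 fold change, with a median of 0.14 against -0.01 over all genes. The values ran from -0.60 (Atp5pb, an uncertain row of low level) to 0.35 (Cox7c). At an unadjusted p under 0.05, 17 members were higher (36.2% of those tested, against 4.34% of all genes) and 0 were lower (3.29% of all genes). The median standard error was 0.08 for members and 0.18 for all genes. A shift of a given size thus passed an unadjusted p more readily among members. The lowest adjusted p was 0.627, and DESeq2 gave the same 17 to 0 count at an unadjusted p and 0 members at an adjusted p. All HFE rats lay above all HF rats for 27 of the 47 members, against 8.26% of all genes. The count of 17 fell to between 4 and 14 when single rats were left out, with 4 without HFE rat 2, and was 8 in the fit of all 12 rats and 7 with scaling by library size alone. The median stayed between 0.11 and 0.18 over all alternatives.

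**Figure D2:**
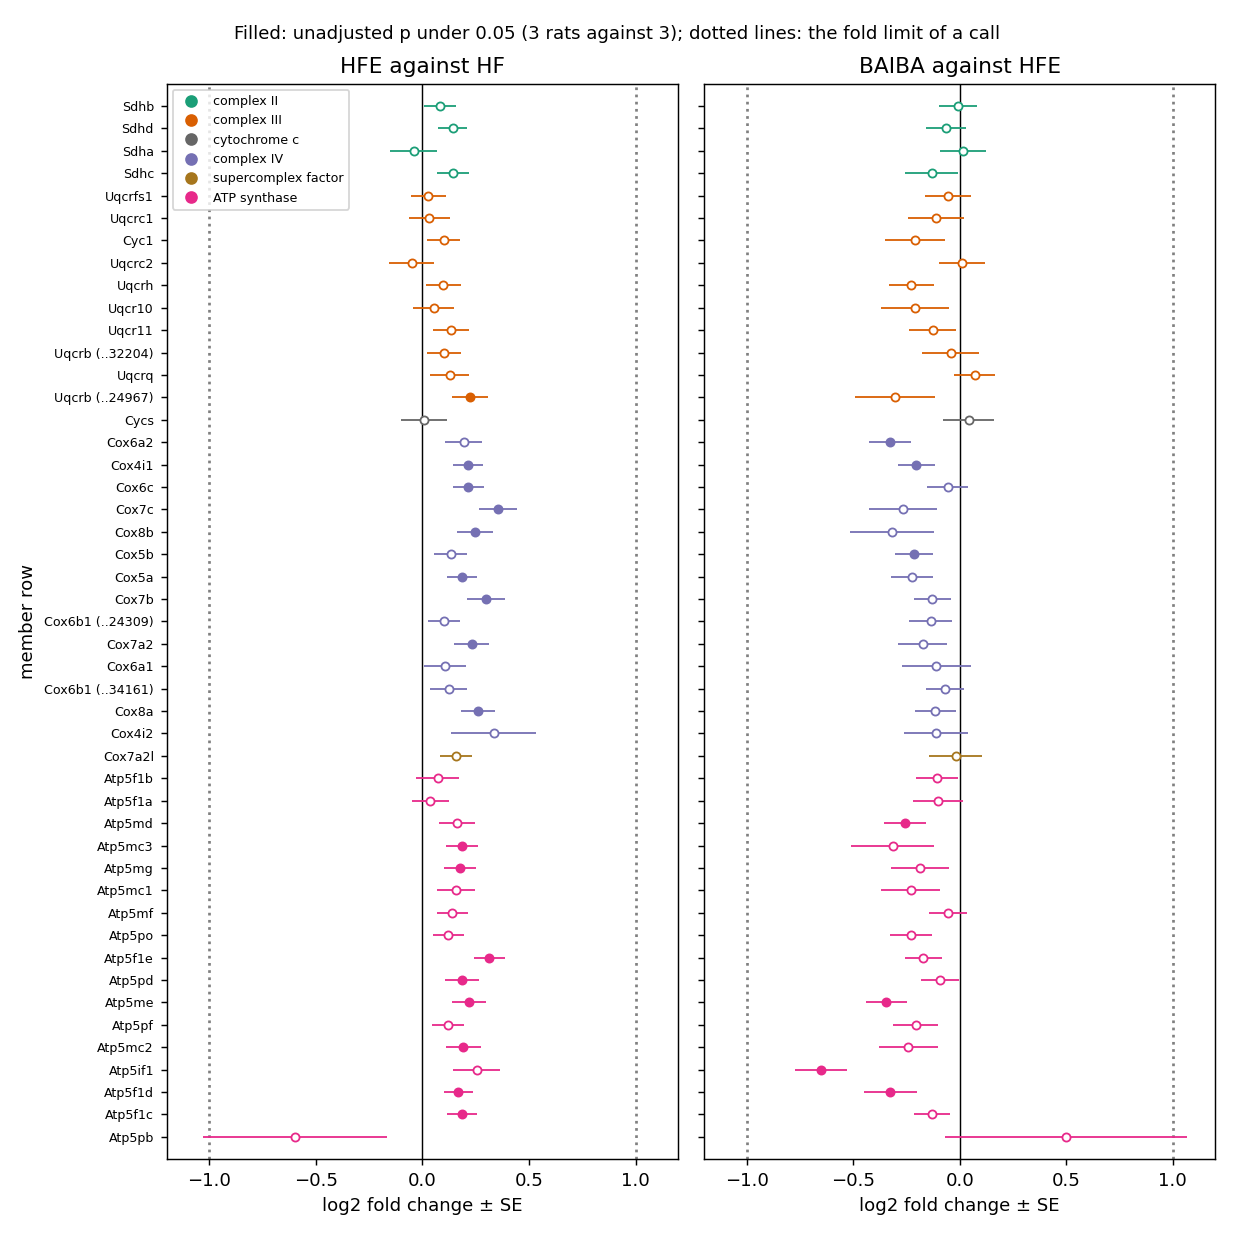
Log2 fold changes with standard errors of the 47 tested member rows for HFE against HF (left) and BAIBA against HFE (right), 3 rats a group, coloured by complex. Filled points have an unadjusted p under 0.05 and dotted lines mark the fold limit; 44 of 47 rows lie above 0 on the left and 42 of 47 below 0 on the right, and both panels use the same HFE rats.

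The positive values were spread unevenly over the complexes. In complex IV all 14 tested rows were positive, with a median of 0.21 and 8 rows at an unadjusted p under 0.05. ATP synthase had 16 of 17 positive, a median of 0.17 and 8 such rows, complex III had 9 of 10 positive, a median of 0.10 and 1 such row (Uqcrb, ENSRNOG00000024967), and complex II had 3 of 4 positive, a median of 0.11 and 0 such rows. Cycs was at 0.01 (SE 0.11), and LOC100363502, the cytochrome c-like row with more counts, was at 0.11 (adjusted p = 0.720). Summed over rows, complex IV was at 9684 to 9735 FPKM in HFE and 8261 to 8954 FPKM in HF rats, and ATP synthase at 12166 to 12467 against 11230 to 11586 FPKM. Both sums were separated between the groups. The sums in Sham rats ran from 8099 to 9776 FPKM for complex IV and from 10923 to 12586 FPKM for ATP synthase, a range that contained the HF and HFE rats. The difference between complexes was not tested.

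Atp5f1e, the ε subunit in the central stalk of ATP synthase, had the lowest unadjusted p. Its levels were 221, 223 and 224 CPM in HFE rats, 188, 173 and 176 CPM in HF rats, 168, 208 and 204 CPM in Sham rats and 211, 187 and 195 CPM in BAIBA rats. HFE rats were above every other rat of the series. The log2 fold change was 0.31 (SE 0.07, adjusted p = 0.627), DESeq2 gave an adjusted p of 0.0579, and over the alternatives the adjusted p ranged from 0.0579 to 0.827. The exact permutation test (two-sided, 3 rats against 3) gave p = 0.1, the smallest it can give.

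Cox7c, a small subunit of complex IV, had 435, 433 and 485 CPM in HFE and 363, 369 and 325 CPM in HF rats, while Sham rats were spread from 312 to 465 CPM. HFE and HF did not overlap. The Sham range held all HF rats and HFE rats 1 and 2, and HFE rat 3 lay above it. The log2 fold change of HFE against HF was 0.35 (SE 0.09, adjusted p = 0.627). Cox7b, another small subunit, had 312, 352 and 337 CPM in HFE, 288, 270 and 255 CPM in HF, 295, 309 and 303 CPM in Sham and 306, 312 and 295 CPM in BAIBA rats. The HF rats were the lowest 3 of the 12, and HFE rats 2 and 3 were the highest. The log2 fold change was 0.30 (SE 0.09, adjusted p = 0.627). The other complex IV rows at an unadjusted p under 0.05 were Cox8a (0.26), Cox8b (0.25), Cox7a2 (0.23), Cox6c (0.22), Cox4i1 (0.21) and Cox5a (0.19).

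Other members had varied log2 fold changes in the same comparison, and differences between members were not tested. In the F1 part of ATP synthase, the γ subunit Atp5f1c was at 0.19 (SE 0.07, adjusted p = 0.634), with no overlap between the groups. Atp5f1b was at 0.07 (SE 0.10), with 5485, 5475 and 5575 CPM in HFE and 4559, 5350 and 5823 CPM in HF rats. HFE rats lay inside the HF range. Atp5f1a was at 0.04 (SE 0.09), Uqcrc1 at 0.03 (SE 0.10), Uqcrfs1 at 0.03 (SE 0.08), Cyc1 at 0.10 (SE 0.08) and Sdhb at 0.08 (SE 0.07). Below 0 were Sdha at -0.04 (SE 0.11), Uqcrc2 at -0.05 (SE 0.11) and Atp5pb at -0.60 (SE 0.43), and the signs of Sdha and Uqcrc2 turned without HF rat 3. Gene length was taken as the length implied by the deposited counts and FPKM. Across the 47 members, log2 fold change and this length had a Spearman correlation of -0.38, and across all 14938 genes it was -0.12. Members share the same 6 libraries, so these are descriptions, and the part of length in the difference was not tested.

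Marker genes of other cell types were measured in the same rats. The summed level of 5 macrophage markers was 51.2 to 71.2 CPM in HFE, 71.3 to 134 CPM in HF, 86.2 to 100 CPM in Sham and 81.8 to 160 CPM in BAIBA rats. All 5 were below 0 in HFE against HF (median log2 fold change -0.48), 2 of them at an unadjusted p under 0.05. The HFE and HF ranges of this sum did not overlap. All 3 smooth muscle markers were above 0 (median 0.43), while 3 of 4 erythroid markers (median -0.26) and the 2 adipocyte markers tested were below 0. None of these passed an unadjusted p under 0.05. Of 6 fibroblast and scar markers, 4 were below 0 (median -0.11), and Col1a1 was higher at an unadjusted p under 0.05. Of the 8 cardiomyocyte markers, 4 (Tnni3, Actc1, Tnnt2 and Myl2) were higher at an unadjusted p under 0.05, while Myh6 (-0.12), Ryr2 (-0.22) and Actn2 (-0.08) were below 0, and the list median was 0.20. The part of these markers in the members' values was not tested.

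**Figure D3:**
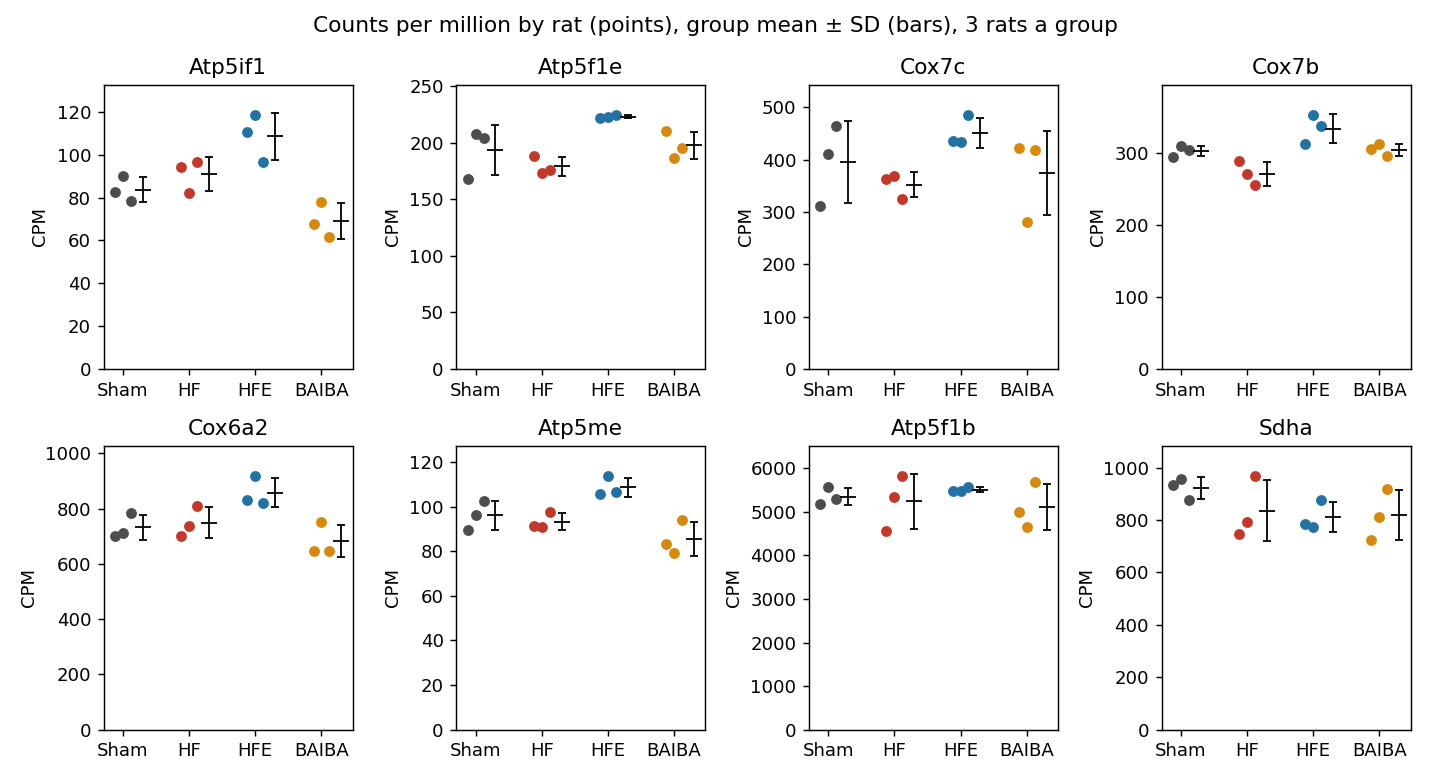
CPM by rat (points) with group mean ± SD (bars, n = 3) for 8 members, on axes starting at 0. Atp5if1 is lowest in BAIBA and highest in HFE rats, the 3 HFE values of Atp5f1e nearly coincide at 221 to 224 CPM, and Atp5f1b and Sdha overlap between all groups.

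BAIBA against HF asked whether the compound moved the same genes in the failing heart. The median over members was -0.03, against -0.01 over all genes, and 20 of 47 members were positive. At an unadjusted p under 0.05, 0 were higher (2.81% of all genes) and 1 was lower (2.73%), by edgeR and by DESeq2 alike. Without BAIBA rat 2 the median was 0.07, with 0 members higher and 1 lower. Uqcrq, a small subunit of complex III, was at 0.20 (SE 0.12, adjusted p = 0.851), Cox7b at 0.17 (SE 0.10, adjusted p = 0.852) and Cox6c at 0.16 (SE 0.11, adjusted p = 0.856). On the other side, Cox6a2 was at -0.14 (SE 0.12, adjusted p = 0.872) and Atp5me, a membrane subunit that holds ATP synthase dimers together, at -0.13 (SE 0.10, adjusted p = 0.864). The lower member was Atp5if1, at -0.40 (SE 0.12, adjusted p = 0.851).

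Atp5if1 had the lowest p of all members in a test across the 4 groups. It encodes the inhibitory factor that binds ATP synthase and blocks its running in reverse as an ATP hydrolase. Its levels were 82.7, 90.1 and 78.4 CPM in Sham, 94.3, 82.0 and 96.6 CPM in HF, 111, 118 and 96.7 CPM in HFE and 67.6, 78.0 and 61.7 CPM in BAIBA rats. Every BAIBA rat was below every rat of the other groups (BAIBA rat 2 only narrowly, at 78.0 CPM against 78.4 CPM in Sham rat 3). Every HFE rat was above the other 9 rats (HFE rat 3 only narrowly, at 96.7 CPM against 96.6 CPM in HF rat 3), and Sham and HF overlapped. BAIBA against HFE gave a log2 fold change of -0.65 (SE 0.12, adjusted p = 0.15), the largest in size of any member with more than 10 FPKM in any comparison, and the exact permutation p was 0.1. Without BAIBA rat 2 it was at -0.74 (adjusted p = 0.123), and over all alternatives between -0.74 and -0.57, under the fold limit of a call.

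The evidence for this difference depended on the test. The labels do not say that equal replicate numbers pair BAIBA with HFE rats, so a block by number has no stated basis in the design. In BAIBA against HFE, the fit with this block gave Atp5if1 an adjusted p of 0.0487, and 25 of 14844 genes (0.168%) were lower at that level. DESeq2 gave an adjusted p of 0.00125, with 163 of 15594 genes (1.05%) lower. The fit of all 12 rats gave 0.0713, and over all alternatives the adjusted p ranged from 0.00125 to 0.474, the highest without HFE rat 2. Against Sham, Atp5if1 was at 0.38 in HFE (SE 0.10, adjusted p = 0.292) and at -0.27 in BAIBA rats (SE 0.11, adjusted p = 0.656), and HFE against HF was at 0.25 (SE 0.11, adjusted p = 0.648). In a test for any difference among the 4 groups, Atp5if1 had an adjusted p of 0.266 by edgeR and 0.00103 by DESeq2. That test gave 0 members at an adjusted p under 0.05 by edgeR (0 of 15617 genes), 6 members at an unadjusted p (9.71% of all genes) and 2 by DESeq2, Atp5if1 and Cox7b (adjusted p = 0.044), against 1.97% of all genes.

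Over the whole family, most members were lower in BAIBA than in HFE rats, in a comparison that uses the same HFE rats as HFE against HF. A negative log2 fold change was found for 42 of 47 members, with a median of -0.13 against 0.00 over all genes. At an unadjusted p under 0.05, 7 members were lower (4.88% of all genes) and 0 were higher (4.68%), DESeq2 had 9 lower, and all BAIBA rats lay below all HFE rats for 19 members (8.37% of all genes). The 7 were Atp5if1, Atp5me, Cox6a2, Atp5md, Atp5f1d, Cox5b and Cox4i1. Without BAIBA rat 2 the median was -0.08 and 4 members were lower, and over all single rats left out the number ranged from 2 to 12 (12 without BAIBA rat 3, 2 without HFE rat 2). Medians were -0.21 for ATP synthase, -0.16 for complex IV, -0.12 for complex III and -0.04 for complex II. Above 0 were 5 members, namely Atp5pb at 0.50 (SE 0.57), Uqcrq at 0.07 (SE 0.10), Cycs at 0.04 (SE 0.12), Sdha at 0.01 (SE 0.11) and Uqcrc2 at 0.01 (SE 0.11). LOC100363502, the cytochrome c-like row outside the members, was at -0.03 (adjusted p = 0.943).

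Cox6a2 had 648, 750 and 648 CPM in BAIBA, 832, 917 and 821 CPM in HFE, 701, 736 and 811 CPM in HF and 702, 712 and 785 CPM in Sham rats. All HFE rats lay above all others, and BAIBA, HF and Sham rats overlapped. The log2 fold change of BAIBA against HFE was -0.33 (SE 0.10, adjusted p = 0.304). Atp5me had 83.3, 79.3 and 93.8 CPM in BAIBA and 106, 114 and 107 CPM in HFE rats, which were also apart, at -0.34 (SE 0.10, adjusted p = 0.276). Actc1 and Myl2, genes of the cardiac sarcomere, were lower at an unadjusted p under 0.05 in this comparison, while Myh6, the α myosin heavy chain gene, was higher (0.53, SE 0.19), as were 3 of 5 macrophage markers and 3 of 4 erythroid genes. All 6 fibroblast and scar markers were above 0 (median 0.39, Dcn at an unadjusted p under 0.05). Of 3 endothelial markers tested, 2 were below 0, Kdr at an unadjusted p under 0.05. Cidea, a brown adipocyte marker, was higher at that level. All 3 smooth muscle markers (median -0.12) and all 3 atrial markers tested were below 0. The part of these genes in the members' values was not tested.

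The HFE group was also compared with Sham. The median was 0.12 against 0.01 over all genes, and 41 of 47 members were positive. At an unadjusted p under 0.05, 8 were higher (6.04% of all genes) and 1 was lower (5.15%), DESeq2 had 4 and 1, and 16 members did not overlap in the higher direction (9.5% of all genes). Besides Atp5if1, the clearest were Atp5f1d, the δ subunit, at 0.27 (SE 0.07, adjusted p = 0.294) and Cox6a2 at 0.23 (SE 0.08, adjusted p = 0.358). The lower one was Sdha, at -0.18 (SE 0.07, adjusted p = 0.410), with 935, 958 and 876 CPM in Sham and 785, 773 and 877 CPM in HFE rats. The groups overlapped only through HFE rat 3 and Sham rat 3. Uqcrc2 was at -0.15 (SE 0.07, adjusted p = 0.467) and Atp5pb at -0.79 (SE 0.43, adjusted p = 0.549). The excess of higher members depended on the scaling and the test, with 2 higher and 2 lower under library size alone, and 2 higher with 2 or 3 lower under limma on log2(FPKM + 1) or log2(FPKM + 0.1). Without Sham rat 1, or without HFE rat 2, 2 members were higher, without Sham rat 3 the count was 16, and the median without Sham rat 1 was 0.05.

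Markers of other cell types went both ways in HFE against Sham. All 5 macrophage markers were below 0 (median -0.59, 4 at an unadjusted p under 0.05). So were all 6 fibroblast and scar markers (median -0.29, 3 at an unadjusted p under 0.05) and all 4 atrial markers. All 3 endothelial markers tested were above 0 (median 0.13, Kdr at an unadjusted p under 0.05). All 3 smooth muscle markers (median 0.17) and all 4 erythroid markers (median 0.09, Hbb at an unadjusted p under 0.05) were also above 0. Of the cardiomyocyte markers, Tnni3, Actc1, Tnnt2 and Myl2 were higher and Myh6 was lower at an unadjusted p under 0.05. None of these had an adjusted p under 0.05, and their part in the members' values was not tested.

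For BAIBA against Sham the median over 48 members was -0.07, against 0.00 over all genes, with 15 positive. At an unadjusted p under 0.05, 0 were higher (4.13% of all genes) and 1 was lower (3.28%), Atp5if1, and DESeq2 had 2 lower. Without BAIBA rat 2 the median was 0.03, with 1 member higher and 1 lower. Atp5md, a small membrane subunit of ATP synthase, was at -0.21 (SE 0.10, adjusted p = 0.680) and the smaller Cox6b1 row (ENSRNOG00000034161) at -0.16 (SE 0.09, adjusted p = 0.749). The highest were Uqcrq at 0.15 (SE 0.13, adjusted p = 0.852), Cox7a2l at 0.14 (SE 0.12, adjusted p = 0.858) and Atp5pd at 0.10 (SE 0.10, adjusted p = 0.876).

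**Figure D4:**
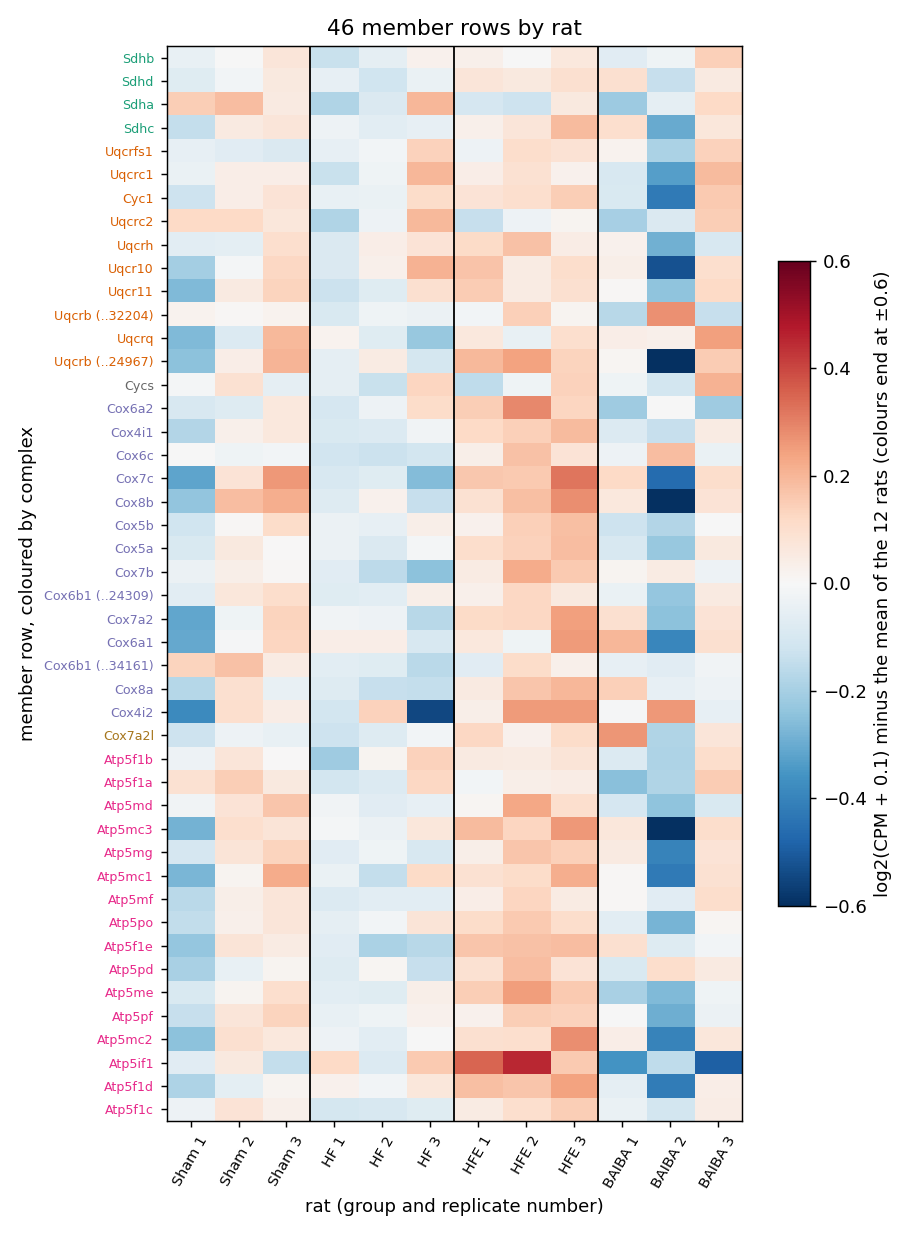
Difference of each rat from the mean of the 12 rats on the log2(CPM + 0.1) scale for 46 member rows with a mean over 5 CPM (Atp5pb left out for its wide spread), ordered by complex, with colours ending at ±0.6. The HFE columns are mostly red, HF rats 1 and 2 mostly pale blue, BAIBA rat 2 holds the deepest blues together with a red Uqcrb row, and Atp5if1 is red in HFE and blue in BAIBA rats.

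The spread within groups was uneven. BAIBA rat 2 was more than 0.25 on the log2 scale below the mean of the other BAIBA rats for 21 of 47 members and above it for 3, with a median difference of -0.21 against 0.01 over all genes. Atp5mc3 was at 434 CPM in this rat and at 723 and 744 CPM in the others. Cox8b was at 163 against 272 and 276 CPM, and Cox7c at 281 against 422 and 418 CPM. These were the lowest values of the series for the 3 genes. Sdha (813 against 725 and 917 CPM) and Uqcrc2 (749 against 693 and 882 CPM) lay between the other rats.

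A few members went the other way in BAIBA rat 2. The Uqcrb row ENSRNOG00000032204 was at 161 against 118 and 120 CPM, while the Uqcrb row ENSRNOG00000024967 was at 46.6 against 72.3 and 79.8 CPM. The rows of 1 symbol thus moved in opposite directions in the same rat. Cox6c was at 447 against 384 and 382 CPM and Cox6a2 at 750 against 648 and 648 CPM. Transcripts of the mitochondrial genome took 36.0% of the counts in BAIBA rat 2, and 30.4% to 33.8% in the other 11 rats.

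BAIBA rat 3 lay on the other side, with 14 members above the mean of the other BAIBA rats by the same limit and 0 below, and a median difference of 0.19. That mean includes BAIBA rat 2.

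Sham rat 1 had a median difference of -0.17, with 13 members below and 1 above by the same limit, and 10 members were below it in both rats. Cox7c was at 312 against 411 and 465 CPM and Cox8b at 221 against 295 and 303 CPM. Across 46 members without Atp5pb, the differences in the 2 rats had a Pearson correlation of 0.56, and of 0.01 with Atp5pb, so the value rests on leaving out that row. In each HFE rat 0 or 1 member lay beyond the limit in either direction.

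**Figure D5:**
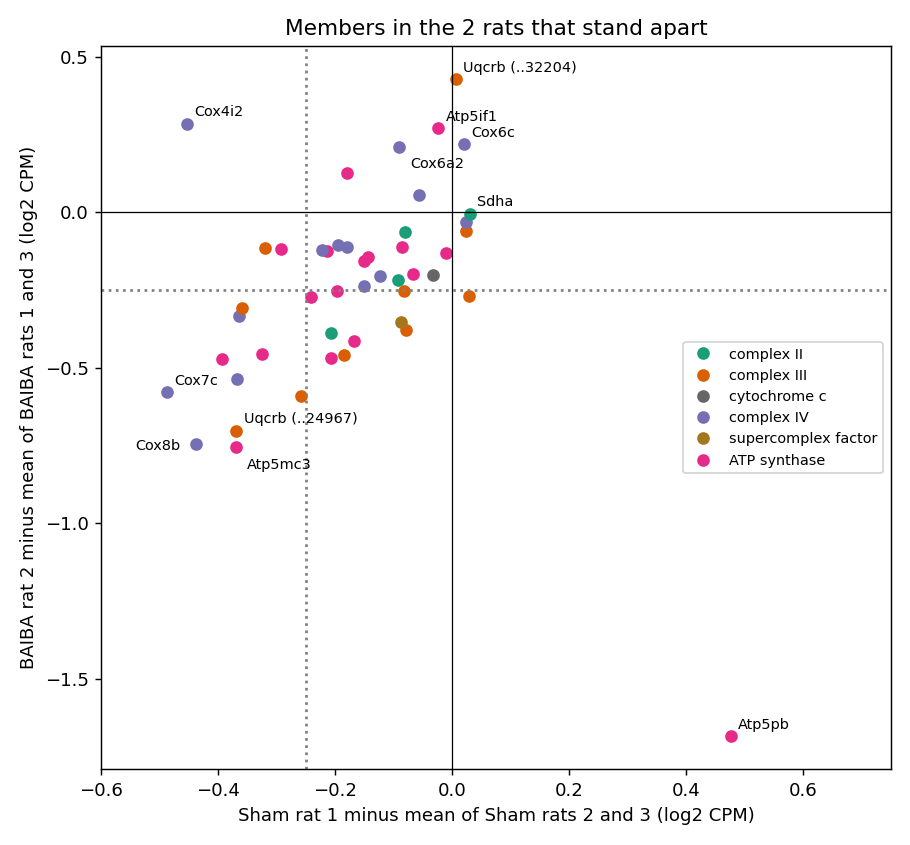
Differences on the log2 CPM scale of Sham rat 1 (horizontal) and BAIBA rat 2 (vertical) from the mean of the other rats of their group for 47 member rows, coloured by complex; dotted lines mark -0.25. Cox7c, Cox8b and Atp5mc3 lie low in both rats, the Uqcrb rows lie apart by over 1 unit on the vertical axis, and Atp5pb lies far from the rest.

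After the group means were removed, the members' deviations over the 12 rats had a median pairwise Pearson correlation of 0.49 over 1081 pairs, and 33 of 47 members correlated above 0.5 with the mean of the others. Rats share library depth and composition across all members, so this is a description. The closest to the mean were Atp5po, the stalk protein that ties the catalytic head to the stator (0.97), the larger Cox6b1 row (0.97) and Atp5pf (0.96). At the other end were Uqcrb (ENSRNOG00000032204, -0.67), Cox6c (-0.64) and Atp5if1 (-0.50), and 6 members were below 0.

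Other genes of the pathway were taken from fixed lists. Of 13 subunits made from mitochondrial DNA, 0 had an adjusted p under 0.05 in any comparison. Their median was -0.08 in HFE against HF, where 1 (Mt-nd4, of complex I) was lower at an unadjusted p, and -0.04 in BAIBA against HFE. Mt-co1, the catalytic subunit of complex IV, was at 0.16 (SE 0.10) and Mt-co2 at -0.20 (SE 0.13) in HFE against HF. The list also holds subunits of complex I (Mt-nd symbols), which the members leave out. Of the remaining subunits, Mt-cyb was at -0.02 (SE 0.10), Mt-co3 at 0.12 (SE 0.10), Mt-atp6 at 0.09 (SE 0.10) and Mt-atp8 at -0.20 (SE 0.13). The mitochondrial subunits of complexes III to V thus went both ways in HFE against HF. Their difference from the nuclear members was not tested.

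The 46 complex I rows tested (Nduf symbols) had a median of 0.14 in HFE against HF with 14 higher at an unadjusted p, and of -0.19 in BAIBA against HFE with 10 lower. These values were close to those of the members. Of 31 assembly factors tested, 1 was higher in HFE against HF (Fmc1, for ATP synthase) and 2 were lower in BAIBA against HFE (Fmc1 and the copper chaperone Cox17) at an unadjusted p, with medians of 0.07 and -0.06. Of 18 regulators, 0 were higher and 1 was lower in HFE against HF (Gabpb2), with a median of -0.0048. Ppargc1a, the coactivator known for driving mitochondrial biogenesis, was at 0.01 (SE 0.13), Esrra at 0.25 (SE 0.11, adjusted p = 0.648), Nrf1 at 0.06 (SE 0.15), Gabpa at -0.10 (SE 0.10) and Tfam, which packages mitochondrial DNA, at 0.20 (SE 0.09, adjusted p = 0.648). Of 12 genes taken as measures of mitochondrial content, 0 passed an unadjusted p in HFE against HF. Citrate synthase (Cs) was at -0.14 (SE 0.12), the adenine nucleotide carrier Slc25a4 at 0.15 (SE 0.08) and the outer membrane channel Vdac1 at 0.04 (SE 0.08), with a list median of 0.12.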

How the data were processed

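RNA of the left ventricle was sequenced as paired-end, poly(A)-selected libraries from 12 rats, 3 in each of 4 groups. The authors trimmed and filtered reads, used HISAT2 for alignment and StringTie to add genes, and counted reads per gene with featureCounts. The deposited counts are raw, and the deposited FPKM values were made by the authors from those counts and gene lengths. Tool versions, annotation and strand setting are not given in the sources used here, and the submitters' processing notes list a mouse genome build although the identifiers are of rat, so no coordinates of the counted genes are printed. Both deposited tables held the same values (0 differences), and all per-sample columns belonged to the 12 rats. Their columns of the authors' own comparisons were not used.

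Counts were analysed with edgeR 4.0.16 in R 4.3.3 (filterByExpr, TMM, robust quasi-likelihood fits of the groups compared, no covariate). Calls needed a Benjamini-Hochberg adjusted p under 0.05 over all genes tested and an absolute log2 fold change over 1. Where no tool is named, an adjusted p is edgeR's. Standard errors are the log2 fold change over the root of F. The permutation test was exact and two-sided, on log2(CPM + 0.1). Replicates of a group differed by a chi-square of 12.6 to 36.4 per degree of freedom, so no library was a copy of another. The labels give separate samples, and p-values measure the spread between them. The script was tested on simulated counts.

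Same-numbered rats had residual correlations of 0.23, 0.23 and 0.13 in BAIBA against HFE, all above 0.1. In the other comparisons not all of them were above 0.1. The labels number the rats but do not say that equal numbers pair them. The main fits therefore had no block, and the replicate block was an alternative in every comparison.

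Alternatives were DESeq2 1.42.0, RLE factors, library size alone, a minimum of 1 count or of 10 counts in every library, all 12 rats in the fit, the replicate block, each rat left out, limma 3.58.1 on log2(FPKM + 1) and log2(FPKM + 0.1), members with at least 10 FPKM only (for medians), and other call rules. The members, gene lists and tests were chosen with earlier results of these data known. Named were fixed catalytic, core and isoform genes, the 3 higher and 3 lower members with the lowest p in each comparison, and the highest and lowest member of each complex. Other members in the text were named after their values were seen. Pecam1, Myh1, Myh4, Timm23, Surf1, Sco2, Coa1 and Pet117 of the lists were not found in the table by symbol. Marker lists of fibroblasts, endothelium, smooth muscle, atrium, adipocytes and skeletal muscle held 0 genes with an adjusted p under 0.05 in any comparison, as did the lists named in the results, and Ucp1 of brown adipocytes had under 10 counts.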

Additional observations from a re-analysis of the deposited data

How the results depend on the processing

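The number of members called was 0 in every comparison of a pair of groups under DESeq2, other scaling, other filters, all 12 rats, the replicate block, limma and each rat left out. It became 1 (HF against Sham), 17 (HFE against HF), 1 (BAIBA against HF), 7 (BAIBA against HFE), 9 (HFE against Sham), 1 (BAIBA against Sham) and 6 (any of 4 groups) with an unadjusted p and no fold limit, and 2 for any of 4 groups with DESeq2. The replicate block changed no call of a member; with the fold limit dropped, it gave Atp5if1 in BAIBA against HFE (adjusted p = 0.0487), as did DESeq2 (adjusted p = 0.00125). The labels do not say that equal replicate numbers pair the rats in any comparison. With each rat left out, the median log2 fold change ranged from -0.10 to 0.01 (HF against Sham), 0.13 to 0.18 (HFE against HF), -0.10 to 0.07 (BAIBA against HF), -0.21 to -0.08 (BAIBA against HFE), 0.046 to 0.17 (HFE against Sham, lowest without Sham rat 1) and -0.15 to 0.03 (BAIBA against Sham). The median kept its sign under all 16 alternatives in HFE against HF, HFE against Sham and BAIBA against HFE. Signs turned in HFE against HF without HF rat 3 for Uqcrc2 (range with each rat left out -0.13 to 0.052) and Sdha (-0.12 to 0.074), and in BAIBA against HFE for Atp5pb without BAIBA rat 1 (-0.22 to 0.89) and for Cycs without HFE rat 1 (-0.03) or BAIBA rat 3 (-0.0499 to 0.12). The cause was not tested. With 3 rats a group, the median standard error of a member was 0.08 to 0.12 on the log2 scale, against 0.17 to 0.20 over all genes.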
